A study of Caenorhabditis elegans with 4 samples.

Results

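The left end of Caenorhabditis elegans chromosome IV carried 539 of the 9439 ZIM-1 peaks in the series-wide list, on 3 Mb of sequence. The 539 peaks were chosen by position alone: each lies on IV with its midpoint at most 3000000 bases from the left end, on WormBase release WS220, the build of the deposited files. No peak straddled that limit (0 peaks). The same interval held 315 of the 5552 peaks of ChIP replicate 1 and 147 of the 2887 peaks of ChIP replicate 2. It makes up 17.1% of IV and 2.99% of the nuclear sequence, and it held 29.3% of the series-wide peaks of IV.

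In C. elegans meiosis, each chromosome pairs with its homolog and begins synapsis from a pairing center near 1 of its ends. Pairing centers are bound by a family of zinc finger proteins, ZIM-1, ZIM-2, ZIM-3 and HIM-8, which connect them to the nuclear envelope and recruit meiotic kinases. ZIM-1 is known for the left ends of II and III, ZIM-2 for V, HIM-8 for X, and ZIM-3 for I and IV. The left end of IV is thus a pairing center end whose known protein is ZIM-3 and not the ZIM-1 that was immunoprecipitated here, which raises the question of what a ZIM-1 profile holds there.

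The series has 4 samples of the strain fem-2(b245): 2 ZIM-1 ChIP libraries and 2 input libraries of genomic DNA. The mutation lies in fem-2, a phosphatase gene of the sex determination pathway that promotes male fates. It is shared by all 4 samples, so there was no wild-type group. The worms were hermaphrodites grown at 20 °C and described as young adults with a germline, although the growth protocol describes gravid adults. The antibody was an affinity-purified rabbit polyclonal, SDQ3965, raised against a stretch of ZIM-1. Whole worms were extracted, so peaks cannot be assigned to germline or somatic nuclei. Nothing in the labels says whether the 2 ChIP replicates came from separate cultures, and the input libraries were not analysed here, so peaks could not be set against the input signal of this interval.

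Each list gives the first and last base of a peak and 1 score from the authors' peak caller. No header says what the score measures, so scores were compared only within a list. Scores ran from 1.3 to 174.44 in the series-wide list, where 78 peaks shared the highest value. In the replicate lists they began at 50 and 50.01, with many peaks at exactly 3100. Read depth is unknown. Intervals below count each peak as 1 event at the 95% level and cover counting error only. Peaks cluster, so the true uncertainty is wider. Peaks are not replicates, and the 2 ChIP samples had no second group to be set against. No test was therefore made of differences between stretches of chromosome, other than the test of windows below.

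Peaks were denser at the left end of IV than on the rest of that chromosome, by the same measure in every list. The series-wide list had 179.7 peaks per Mb at the left end (164.8 to 195.5) and 89.8 per Mb on the rest of IV (85.02 to 94.8), a ratio of 2.0 (1.81 to 2.21). Replicate 1 had 105.0 peaks per Mb at the left end and 55.5 on the rest of IV, a ratio of 1.89. Replicate 2 had 49.0 per Mb at the left end and 26.8 on the rest, a ratio of 1.83. The mean of the replicate ratios was 1.86 ± 0.04 (SD, n = 2). Measured by bases covered, the series-wide ratio was 1.59: peaks spanned 6.95% of the left end and 4.38% of the rest of IV. The matching ratio of covered bases was 1.53 in replicate 1 and 1.29 in replicate 2. The opposite end of IV had 94.7 peaks per Mb over its last 3 Mb. That was 0.88 times the density of all other sequence of IV, which includes the dense left end. It was close to the 89.8 per Mb of IV without the left end. Ratios of like size were found at other ends: 2.13 at the left of X and at the right of V, 1.98 at the left of III, and 1.86 at the left of II. Among the 12 chromosome ends, the left end of IV ranked 3 by this ratio with all series-wide peaks, and it ranked 5 in both replicates. Of the 30 non-overlapping tiles of 3 Mb that fit into the 6 nuclear chromosomes, the left end of IV had the second most peaks, 539 against a median tile of 263. The tile with the most, 668 peaks, was the left end of III.

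The excess lay in peaks of low and moderate score and was not seen among the strongest, in score classes drawn after the values were seen. By width it was largest among the narrowest peaks but was not confined to them. Peaks found in both replicates were 1.82 times as dense at the left end as on the rest of IV (1.46 to 2.26). Peaks scoring under 10 numbered 115.7 per Mb at the left end and 56.2 per Mb on the rest of IV, a ratio of 2.06 (1.81 to 2.34). Peaks scoring 10 to 100 had 58.0 per Mb at the left end and 27.5 per Mb on the rest, a ratio of 2.11 (1.75 to 2.52). Above a score of 100, the left end had 18 peaks, or 6.0 per Mb, and the rest of IV had 88, or 6.07 per Mb. The ratio in that class was 0.99 (0.56 to 1.65), so with 18 peaks an excess of up to 1.65 times lies within counting error. By width the ratio was lowest in the widest class. Peaks up to 300 bp wide were 2.32 times as dense at the left end (2.02 to 2.66), those over 300 and up to 1000 bp 1.80 times (1.52 to 2.12), and those over 1000 bp 1.17 times (0.76 to 1.75). Typical peaks were narrower at the left end, with a median width of 266 bp there and 300.5 bp on the rest of IV. The median score was 7.02 at the left end and 7.37 on the rest of IV, a ratio of 0.95. In replicate 1 the medians were 138.03 and 155.6, and in replicate 2 they were 150.3 and 259.3, a ratio of 0.58. Of the peaks at the left end, 6.68% reached the highest-scoring 10% of the series-wide list, against 10.5% on the rest of IV. The matching shares were 6.67% and 10.8% in replicate 1, and 7.48% and 13.7% in replicate 2.

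**Figure D1:**
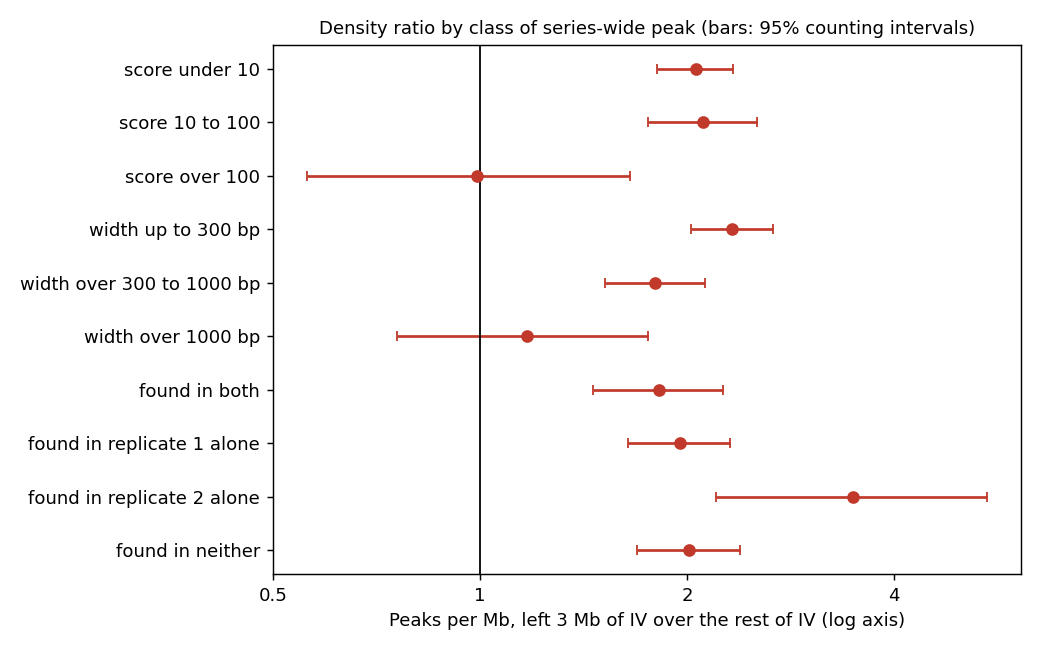
Ratio of peaks per Mb in the left 3 Mb of IV to the rest of IV (x axis, log scale) for classes of series-wide peaks by score, width and presence in the replicate lists; bars are 95% counting intervals and the vertical line marks equal density. The classes of score under 10 and of 10 to 100 lie near 2, while those of score over 100 and width over 1000 bp have intervals that include 1.

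Within the interval, peaks gathered in several patches separated by sparse stretches. Each 100 kb window was compared with the mean of its chromosome by a one-sided exact Poisson test, with Benjamini-Hochberg adjustment over the 1005 windows of the 6 nuclear chromosomes. Of the 30 windows of the interval, 11 were called, or 36.7%, against a background of 8.76% of all windows. Windows in the series-wide list held 6 to 39 peaks (median 17) where 10.5 were expected, and 21 of the 30 lay above that mean. In replicate 1 they held 2 to 25 peaks, and 6 windows of the interval were called against a background of 4.68% of all windows. In replicate 2 they held 0 to 15 peaks, and 5 were called against a background of 3.58%. With only the series-wide peaks found in both replicates, 4 windows of the interval were called against a background of 2.69%, and with only the higher-scoring 50% of the series-wide list 5 were called against 4.58%. Window counts of the replicates varied together along the interval (Spearman's rho and Pearson's r were both 0.90 over 30 windows that lie next to each other, as a description).

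The first 0.6 Mb held none of the called windows, with 6 to 12 series-wide peaks per 100 kb. The first dense patch ran from 0.8 to 1.1 Mb. Its window from 0.8 to 0.9 Mb held 39 peaks, 3.71 times the expected number (exact Poisson test, adjusted p = 1.2e-09), with 17 peaks in replicate 1 and 12 in replicate 2. The next patch, from 1.6 to 1.8 Mb, was milder, with 24 and 22 peaks in its windows. The patch from 2.2 to 2.4 Mb held 30 peaks in its first window and 39 in its second, and the second again reached an adjusted p of 1.2e-09 (exact Poisson test). There replicate 1 had 14 and 20 peaks, and replicate 2 had 10 and 15. The last large patch, from 2.6 to 2.8 Mb, had 32 and 34 series-wide peaks, 20 and 25 in replicate 1, and 13 and 14 in replicate 2. The windows from 0.6 to 0.7 and from 2.9 to 3.0 Mb were called as well, with 21 peaks each. The window from 0.6 to 0.7 Mb lay below the chromosome mean in both replicates. It held 6 peaks in replicate 1, where 6.40 were expected, and 1 in replicate 2, where 3.06 were expected. The window from 2.9 to 3.0 Mb held 17 and 7. Between the last 2 patches, the window from 2.5 to 2.6 Mb held 7 series-wide peaks, 2 in replicate 1 and 0 in replicate 2. The windows from 0.8 to 0.9, 2.3 to 2.4, 2.6 to 2.7 and 2.7 to 2.8 Mb were called in all 3 lists. A Poisson background takes peaks as independent. Against a negative binomial background with the spread of the chromosome's own windows, 0 of the 30 were called, against 0.0% of all windows. Before adjustment, 6 of the 30 had a p of at most 0.05 by that negative binomial test, against 43 of all 1005 windows.

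**Figure D2:**
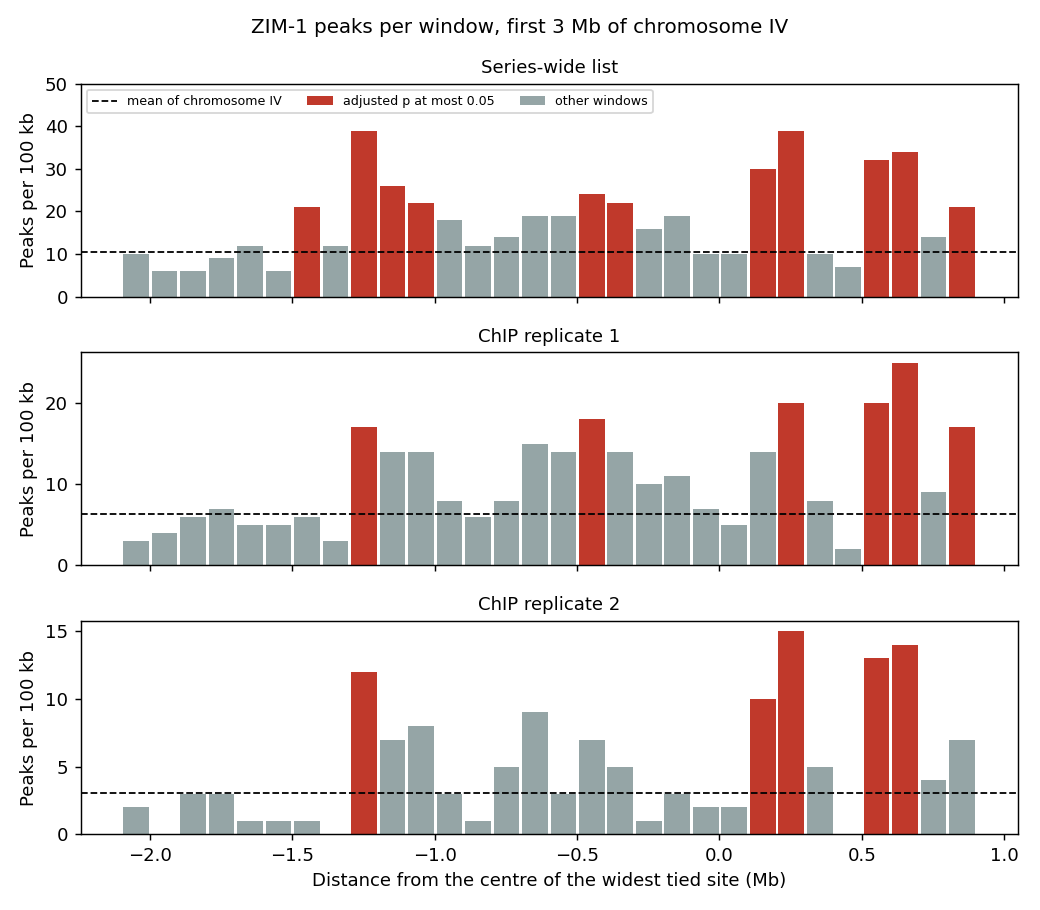
Peaks per 100 kb window over the left 3 Mb of IV, by distance from the centre of its widest top-scoring site (x axis, Mb), in the series-wide list and both ChIP replicates; red windows passed the exact Poisson test at an adjusted p of 0.05 and the dashed line is the mean of IV. The patch more than 1 Mb to the left and those within 1 Mb to the right stand above the mean in all 3 lists.

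The share of peaks found in both replicates was higher toward the inner part of the interval. It was 18.6% of 43 peaks in the first 0.5 Mb (8.39 to 33.4), and 13.5%, 20.0% and 15% in the next 3 bins of 0.5 Mb. It was 27.3% of 99 peaks from 2.0 to 2.5 Mb (18.8 to 37.1) and 34.3% of 108 peaks from 2.5 to 3.0 Mb (25.4 to 44.01). Peak density itself did not follow that order: it was 86.0 per Mb in the first bin and 170.0 to 216.0 per Mb in the other 5. Covered bases were 3.70% of the first bin and 8.95% of the last. From left to right, the median scores of the bins were 6.33, 5.33, 7.74, 6.37, 8.6 and 7.925. The share found in both was not compared between bins at equal score.

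The strongest sites did not simply follow the dense patches. Of the 25 top-scoring sites on IV, 4 lay in the interval, or 1.33 per Mb against 1.45 per Mb on the rest of IV. That is a ratio of 0.92 (0.23 to 2.73). These 4 shared the highest series-wide score of 174.44, and all 4 scored 3100 in both replicates. The widest of them ran from 2096482 to 2099353 (2872 bp), in a window of 10 peaks where 10.5 were expected. In replicate 1 it ran from 2096473 to 2098861 and in replicate 2 from 2096468 to 2098709. The left edges thus agreed to within 14 bases across the 3 lists. The right edges differed more, with widths of 2389 bp in replicate 1 and 2242 bp in replicate 2. The other sites at the highest score lay from 1344684 to 1346451, from 1153619 to 1155161 and from 2244540 to 2245680, with widths of 1768, 1543 and 1141 bp. Only the last of these 4 lay in a called window. The second widest member, from 2754430 to 2756731 (2302 bp), had a lower series-wide score of 92.11 although it also reached 3100 in both replicates.

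Next in score came a pair of sites 34.3 kb apart, which also reached 3100 in both replicates. They ran from 1475790 to 1477769 with a series-wide score of 166.05 and from 1439212 to 1441475 with 161.08. A narrow site lay between them, from 1459468 to 1459964, with a series-wide score of 153.52, 904.85 in replicate 1 and 1739.64 in replicate 2. To their left, a site from 1419709 to 1421161 scored 121.83, 2094.27 and 2363.15 in the same lists. These 4 of the 15 highest-scoring members thus fell within 58.1 kb, in a window of 19 peaks that did not pass the test of windows (exact Poisson test, adjusted p = 0.11).

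Narrow strong sites were found as well. The site from 2683167 to 2683627 was 461 bp wide, with a series-wide score of 154.47, 1434.98 in replicate 1 and 1603.33 in replicate 2. In the sparse first 0.5 Mb, the site from 280499 to 282011 scored 149.32 and reached 3100 in both replicates, and that from 385182 to 385803 scored 126.43, 1753.61 in replicate 1 and 1303.72 in replicate 2. From 0.5 to 1.0 Mb the highest-scoring site ran from 959878 to 960803 with 132.81, and from 1.5 to 2.0 Mb it ran from 1659027 to 1659412 with 110.0. The remaining members among the 15 highest lay from 2177357 to 2178238, from 2494792 to 2495549 and from 2676267 to 2677062, with series-wide scores of 126.38, 122.74 and 119.13. All 18 members scoring over 100 were found in both replicates. Among peaks scoring above 23.52, 94.6% of those at the left end and 93.8% of those on the rest of IV were found in both. Recovery of strong peaks is therefore not shown to be particular to the left end.

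The replicates were then set against each other without the series-wide list. Of the 147 peaks of replicate 2 in the interval, 114 overlapped a peak of replicate 1 by at least 1 bp, a share of 77.6% (69.9 to 84.02); on the rest of IV it was 82.5% of 388 (78.3 to 86.1). Of the 315 peaks of replicate 1, 36.8% met a peak of replicate 2 (31.5 to 42.4), against 39.1% on the rest of IV (35.7 to 42.6). In the left-end pairs the midpoints lay a median of 33.5 bp apart, and 91 of 114 lay within 100 bp. Spearman's rho between their scores was 0.64 and Pearson's r of the log10 scores was 0.75, given as a description across peaks of the same 2 libraries. Of the 114 pairs, 8 were at 3100 in both replicates. The 105 pairs below 3100 in both had a rho of 0.57.

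**Figure D3:**
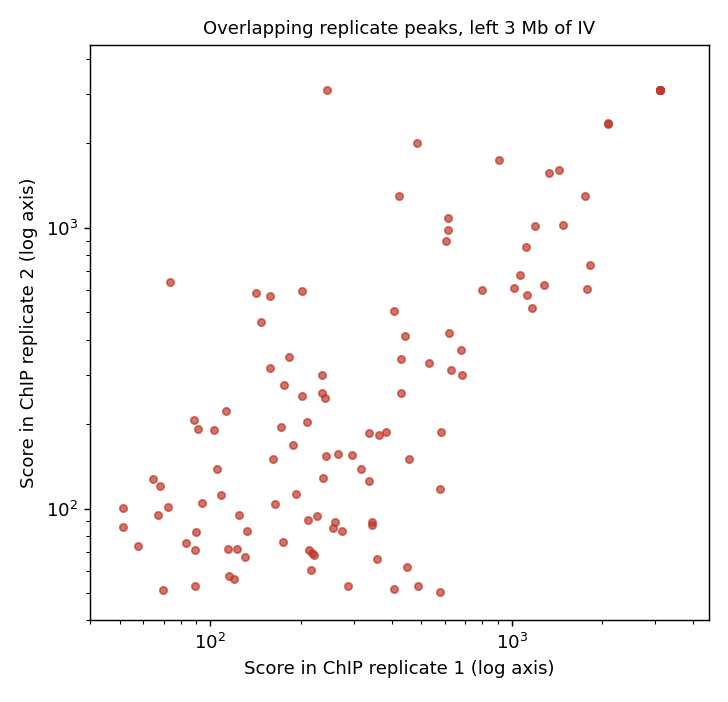
Score in ChIP replicate 1 (x axis) and in ChIP replicate 2 (y axis), both log scales, of 114 overlapping peak pairs in the left 3 Mb of IV. The 8 pairs at 3100 in both lists fall on 1 point at the upper right, and 1 pair stands apart at the upper left, with 243.99 in replicate 1 and 3100 in replicate 2.

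Among the 539 members, 118 were found in both replicates, or 21.9% (18.5 to 25.6), and 195 in replicate 1 alone (36.2%). A further 36 were found in replicate 2 alone (6.68%) and 190 in neither (35.3%). On the rest of IV the shares were 24.04% for both (21.7 to 26.5), 37.1% for replicate 1 only, 3.84% for replicate 2 only and 35.02% for neither. Peaks found in replicate 2 alone had the largest density ratio of the 4 classes, 12.0 per Mb at the left end against 3.45 per Mb on the rest of IV, or 3.48 times (2.20 to 5.45). The share of this class was 6.14% at the left end of III, 3.26% at that of II and 5.32% over all nuclear peaks. It is therefore not shown to be particular to the left end of IV. Members found in both had a median score of 37.5 and a median width of 494.5 bp, and those found in neither 5.01 and 197.5 bp. The series-wide list broke some replicate peaks up: the 313 members that met replicate 1 fell on 295 of its peaks, 29 of which were met by several members. All 147 replicate 2 peaks of the interval were met by a member, against 94.3% on the rest of IV and 98.3% of all nuclear peaks of that replicate. Of the replicate 1 peaks of the interval 93.7% were met and 20 were not. The share met was much the same on the rest of IV, at 93.9%, and over all nuclear peaks, at 95.3%. The highest of those 20, from 2738989 to 2739302, scored 98.34 in replicate 1, below that list's median of 154.5.

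At equal score, the left end and the rest of IV were found again at like rates. Among the highest-scoring 20% of series-wide peaks (above 23.52), 94.6% of 92 left-end peaks were found in both replicates (87.8 to 98.2), against 93.8% of 243 on the rest of IV (90.02 to 96.5). In the 20% below them the shares were 24.5% of 94 (16.2 to 34.4) and 30.4% of 230 (24.6 to 36.8). In the 3 lower classes of 20% they were at most 5.56% at the left end and at most 4.18% on the rest of IV.

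**Figure D4:**
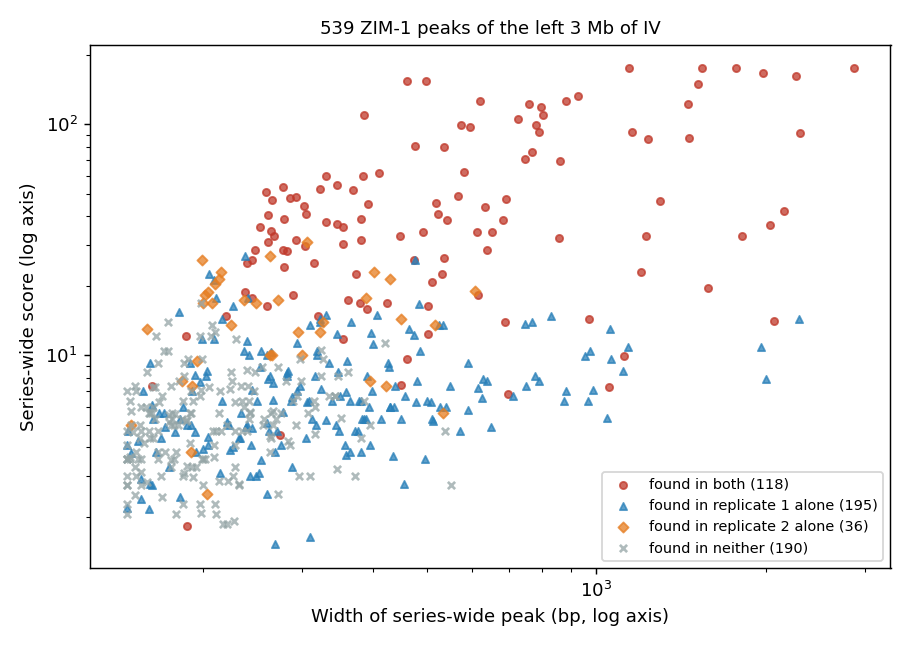
Width (x axis, bp, log scale) and series-wide score (y axis, log scale) of the 539 members, marked by whether a peak of replicate 1, of replicate 2, of both or of neither overlapped them. Members found in both fill the upper part of the plot, with a median score of 37.5, and the wide members of low score below them are mostly found in replicate 1 alone.

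Some strong sites of replicate 1, several of them broad, had no partner in replicate 2, at a share near that of the rest of IV. The member from 1270456 to 1272743 was 2288 bp wide, the third widest of the interval, but its series-wide score was 14.43. Replicate 1 had a peak there from 1270437 to 1272755 with a score of 1251.45, and the nearest peak of replicate 2 lay 36.2 kb away. Close by, replicate 1 had a peak from 1280088 to 1282144 with a score of 962.29, and the members on this stretch formed a run of 5 from 1275920 to 1282047. The run with the most members when peaks less than 1 kb apart were joined lay from 688830 to 697969. It held 12 members in 9.14 kb, with series-wide scores of only 2.79 to 7.9, where replicate 1 had 4 peaks, the highest at 1235.88 from 688689 to 693448, and replicate 2 had 0 peaks. In all, 9 of the 53 left-end peaks in the highest-scoring 25% of replicate 1 lacked a partner in replicate 2 (17.0%, 8.07 to 29.8). On the rest of IV it was 33 of 199 (16.6%, 11.7 to 22.5), and over all nuclear peaks of that class 215 of 1388 (15.5%). In the other direction 0 of 27 lacked a partner, which allows a share of up to 11.1% by the limit of 3 counts and 12.8% by the exact interval. There 6 of 120 lacked a partner on the rest of IV (5.00%) and 24 of 722 over all nuclear peaks (3.32%). The 25% was a limit set after the values were seen. A member from 2828444 to 2830596 differed the other way, with 243.99 in replicate 1, 3100 in replicate 2 and 42.25 in the series-wide list.

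Other long runs differed in their replicate partners. From 2712045 to 2719703, 7 members covered 72.9% of 7.66 kb and met 7 peaks of replicate 1 and 4 of replicate 2, up to 617.87 and 420.7. From 423101 to 427678, 6 members included a single site at 80.58, found in both replicates, and the other 5 were found in neither replicate. From 1501006 to 1505328, 6 members met 5 peaks of replicate 1 and 0 of replicate 2, and from 891806 to 894584, 6 members met 2 and 0. Of all members, 37.8% lay within 1 kb of the next peak (33.7 to 42.1), against 35.9% on the rest of IV (33.3 to 38.5). In the sparser replicate lists the share was 24.4% at the left end and 25.5% on the rest of IV in replicate 1, and 19.05% and 16.0% in replicate 2. In the series-wide list the median gap was 1769 bp at the left end and 2799 bp on the rest of IV. The longest stretch with no member ran from 519690 to 605903, or 86.2 kb. It held 1 replicate 1 peak, with a score of 72.1, and 0 replicate 2 peaks.

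The highest-scoring members not found in both replicates were of moderate score. In replicate 1 alone, the highest ran from 2268283 to 2268519 with a series-wide score of 26.89 and 179.93 in the replicate. In replicate 2 alone it ran from 809228 to 809533 with 30.98 and 228.16. In neither, it ran from 2662961 to 2663158 with 16.79. The first member began at base 1 and ended at base 219, with a score of 14.86, and it met a peak of each replicate that also began at base 1.

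The left ends of II and III, the pairing center ends known for ZIM-1, offered the closest comparison. In number of series-wide peaks, the left end of IV (179.7 per Mb) lay between that of II, with 153.3 per Mb (139.6 to 168.01), and that of III, with 222.7 per Mb (206.1 to 240.2). In the strength of those peaks it lay below both. The median score was 7.02 at the left end of IV, 11.3 at that of II and 13.1 at that of III. The share found in both replicates was 21.9% at the left end of IV (18.5 to 25.6), against 36.3% at that of II (31.9 to 40.9) and 37.9% at that of III (34.2 to 41.7). Peaks scoring at least 50 had a density of 13.3 per Mb at the left end of IV, 32.7 at that of II and 47.7 at that of III, with 9.94 on the rest of IV. At a score of at least 100 the densities were 6.0, 15.3 and 18.0 per Mb at the 3 left ends in that order, with 6.07 on the rest of IV. Covered bases were 6.95% at the left end of IV, 8.41% at that of II and 11.5% at that of III. In replicate 1, the left ends of IV and II had nearly equal counts, 315 and 314, with median scores of 138.03 and 176.5. In replicate 2 they had 147 and 179 peaks, with median scores of 150.3 and 299.2. These differences between chromosome ends were not tested.

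**Figure D5:**
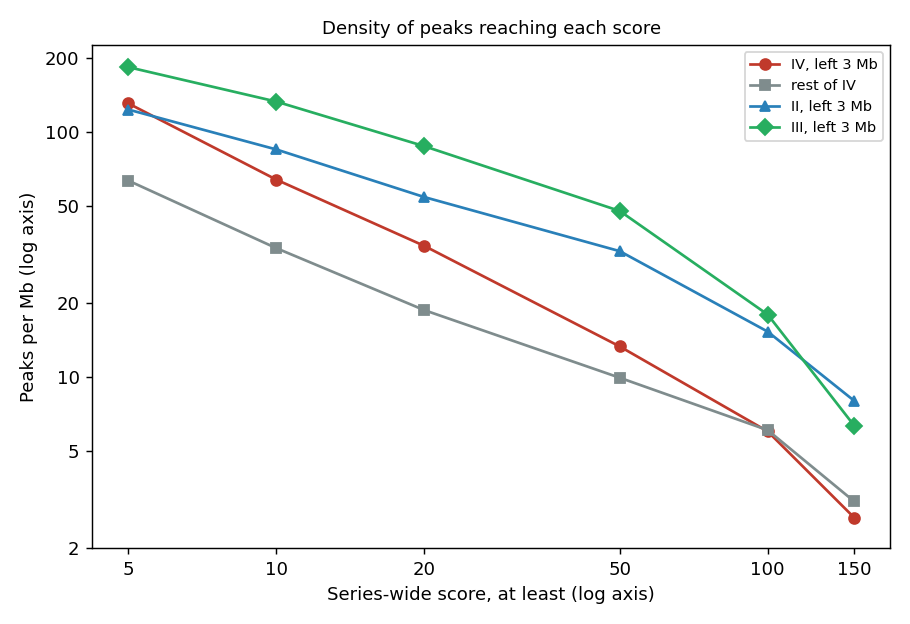
Peaks per Mb that reach a given series-wide score (x axis, at least; both axes log scale) at the left 3 Mb of IV, on the rest of IV, and at the left 3 Mb of II and of III. The left end of IV starts near that of II at a score of 5, with 131.0 and 123.7 per Mb, and meets the rest of IV at a score of 100, with 6.0 and 6.07 per Mb.

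The limit of 3000000 bases cut through a stretch of like peaks. The last members inside it ran from 2996849 to 2997297 with a score of 7.42 and from 2999026 to 2999664 with 7.74. The first peaks outside ran from 3000727 to 3001052 with 4.41 and from 3001269 to 3001581 with 6.33.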

How the data were processed

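ZIM-1 was profiled by ChIP-seq in 2 ChIP libraries with 2 input libraries. Reads were aligned with BWA to build ce10, the UCSC name of WS220, per the submitters' processing notes. Peaks carry the source MACS in the deposited replicate lists and MACS v2 in the deposited series-wide list, per the file headers and source columns. The only deposited value per peak is a score made by the authors' peak caller, whose quantity is not stated. The control, the caller's settings and any pooling of reads behind the series-wide list are not given in the sources used here.

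Members, lists and tests were chosen with earlier results of these data known. Peaks were read with Python 3.11.15, numpy 2.4.6, pandas 2.3.3 and scipy 1.17.1, and figures were drawn with matplotlib 3.10.9. Each chromosome was taken to end where its last peak ends in any of the 3 lists. Peaks overlapping by at least 1 bp were called shared. Densities have exact Poisson intervals, shares exact Clopper-Pearson intervals and density ratios exact conditional binomial intervals, at 95%. Windows of 100 kb were tested as described. The window test was also run on simulated lists in which peaks fell independently, so those runs do not check it for peaks that cluster.

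Named members were the 15 with the highest score among those found in both replicates, the 5 widest, the highest of each 500 kb bin, the highest-scoring found in 1 replicate or in neither, the first member, the members and peaks next to the limit, the longest runs and the called windows. The sites of replicate 1 with no partner in replicate 2, and the sites from 2828444 to 2830596 and in the runs, were discussed after their values were seen. No genome of the build was used here, so sequence and gene content were not analysed, and a planned comparison of the antibody's antigen with ZIM-1, ZIM-2, ZIM-3 and HIM-8 was not run.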

Additional observations from a re-analysis of the deposited data

How the results depend on the processing

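No paired analysis was possible because the input libraries, numbered like the ChIP libraries, were not analysed here. The density ratio of 2.0 was 1.43, 1.70 and 1.78 for left ends of 1, 2 and 4 Mb, 1.59 for covered bases, 1.82 for peaks found in both replicates, 1.88 in the higher-scoring 50% of the list and 1.94 with peaks less than 1 kb apart merged; each replicate list alone gave 1.83 to 1.89. With peaks scoring over 100, a setting added after seeing the data, it turned to 0.99 (0.56 to 1.65, with 18 left-end peaks). The cause of that change was not tested. With an overlap of at least 50% of each peak required, 18.4% of members were found in both replicates, and over 2 Mb 16.3% were, and the share of replicate 2 peaks found in replicate 1 was 89.1% in the higher-scoring 50%. The 11 called windows became 5 to 6 with single replicates, 4 with peaks found in both, 5 in the higher-scoring 50%, and 0 against the negative binomial background, for which the cause was not tested. The ratio of median scores, 0.95, was 0.58 to 0.89 in single replicates. The share within 1 kb of the next peak, 37.8%, was 25.6% for a gap of 500 bp, 53.8% for 2 kb and 19.05% to 24.4% in single replicates. The 4 members at the series-wide tie compare with 8 to 9 peaks at 3100 in single replicates. Because read depth is unknown, a peak missing from a list is not shown to be absent.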
